A study of Mus musculus with 2 samples.

Results

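The genes that copy DNA were followed in mouse soft-tissue sarcoma cells in which a circular RNA, circCsnk1g3, had been silenced. The set held 44 genes, chosen by symbol from the 25509 genes of the count table, and each one was found there once. It covers the steps from origin licensing to chromatin copying, together with E2f1, a transcription factor of the G1/S transition. The sarcoma cells were C57BL/6 mesenchymal stem cells without p53 (p53-/-) that overexpressed Ccne1, the gene of cyclin E1, from a retroviral vector. They had grown as tumors under the skin of a first set of mice, had then been placed in the lungs of other mice, and were recovered from the lung foci. These cells were transduced with a control hairpin (shCTR) or with a hairpin on the backsplice junction of the circle (shcircCsnk1g3), both carried by a lentiviral vector. Each condition was 1 library, both from cells with the alleles and history given above, and no test between conditions could be made.

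Replication is prepared in G1, when the origin recognition complex, CDC6 and CDT1 load the MCM2-7 ring onto DNA. In S phase, CDC45 and GINS turn that ring into an active helicase, polymerase alpha-primase lays primers, and polymerases epsilon and delta extend them behind the sliding clamp PCNA. Many of these genes are transcribed at the G1/S boundary under the control of E2F factors, which the RB proteins restrain and cyclin E with CDK2 releases. p53 and its target Cdkn1a act upstream of that step, so both engineered changes in these cells touch the pathway.

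The libraries were made from poly(A) RNA and held 38792143 estimated counts in shcircCsnk1g3 and 42709996 in shCTR. Csnk1g3 had 2159 counts in shcircCsnk1g3 and 2411 in shCTR, a log2 fold change of -0.05 (95% counting interval -0.14 to 0.03). That count comes from the linear transcripts, since a circle has no poly(A) tail, and the silencing itself cannot be read from these libraries. Ccne1 had 893 and 963 counts, or 11.4 CPM per kilobase of transcript in both (CPM are counts divided by the size of the library). That level lay below the median of 17.4 CPM per kb of genes with at least 1000 summed counts, so a high level of the overexpressed gene was not seen in this table. Trp53 had 3841 and 4334 counts, or 55.3 and 57.9 CPM per kb in shcircCsnk1g3 and shCTR, above the same median. Low Trp53 counts were thus not seen in cells described as p53-/-. The counts do not separate an endogenous transcript from a vector's or an intact allele from a disrupted one. The mesenchymal markers held 12242 and 12788 CPM in shcircCsnk1g3 and shCTR, with Thy1, 1 of 10, at 0 and 1 counts. Of 12 leukocyte markers, 9 had 3 counts or fewer in both libraries, as had 3 of 6 endothelial, 5 of 8 lung epithelial and 3 of 6 red cell markers. The other markers of those cells included Cd68 (87 and 155 counts), Krt8 (92 and 46) and Hba-a1 (423 and 604), and their part in the results was not tested.

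Promoters of the replication genes are shown first. The set was chosen by symbol and not by promoter letters, but many of its genes are known to be under E2F control. The share with an E2F match is therefore not independent of that choice. RefSeq promoters on GRCm38.p6, each running from 250 bases before the gene start to 50 bases after it, were at hand for 37 of the 44 genes, some of which had more than 1 promoter. They were searched on both strands for 4 spellings of the E2F site, TTTCCCGC, TTTCGCGC, TTTGCCGC and TTTGGCGC, and for the CCAAT box, the letters CCAAT. The first base of the gene counts as position 1 and the base before it as -1. The windows below are written along the gene's strand with the E2F letters in capitals. They cover the MCM2-7 genes with a match (1 of 2 overlapping windows for Mcm3), the genes with a match at the ends of the range of changes, and Rfc3 for its adjacent matches on both strands.
Mcm5, chr8:75109346-75109373, plus strand: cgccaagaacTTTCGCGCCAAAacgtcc
Mcm6, chr1:128359798-128359825, minus strand: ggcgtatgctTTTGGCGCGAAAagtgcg
Mcm6, chr1:128359735-128359762, minus strand: attggacgggTTTGGCGCgaagtagctc
Mcm7, chr5:138172031-138172058, minus strand: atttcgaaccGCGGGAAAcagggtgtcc
Mcm7, chr5:138171850-138171877, minus strand: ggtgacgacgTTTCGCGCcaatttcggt
Mcm3, chr1:20820276-20820303, minus strand: aacttccgtgGCGGGAAAacttgggaag
Rfc3, chr5:151651201-151651228, minus strand: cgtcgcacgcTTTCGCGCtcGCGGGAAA
Cdt1, chr8:122568037-122568064, plus strand: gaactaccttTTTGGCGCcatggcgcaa
Orc1, chr4:108579417-108579444, plus strand: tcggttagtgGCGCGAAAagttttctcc
Pola1, chrX:93632276-93632303, minus strand: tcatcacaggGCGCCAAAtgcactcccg

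In Mcm5 and in the upstream window of Mcm6, a forward and a reverse match overlapped in 1 run of letters. Rfc3 carried a forward and a reverse match side by side, at positions -10 and 1. A gene was counted if any of its promoters held a match. At least 1 E2F match was found for 14 of the 37 genes (37.8%), against 704 of 27025 genes in the whole RefSeq table (2.6%) and 5.37% of the genes that reached a sum of at least 1000 counts. The other genes with a match were Cdc6, Gins3, Lig1, Pold1, Pole2 and Uhrf1. A CCAAT box was found for 25 of the 37 (67.6%), against 41.1% of all genes in that table, and 9 genes (24.3%) had both, against 1.26%. The E2F matches lay between positions -185 and 40 with a median of -34. The CCAAT boxes lay between -231 and 43, and 33 of 53 lay in the 100 bases before the start. A match is a description of letters, and a promoter without one may hold other spellings or sites outside this window.

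**Figure D1:**
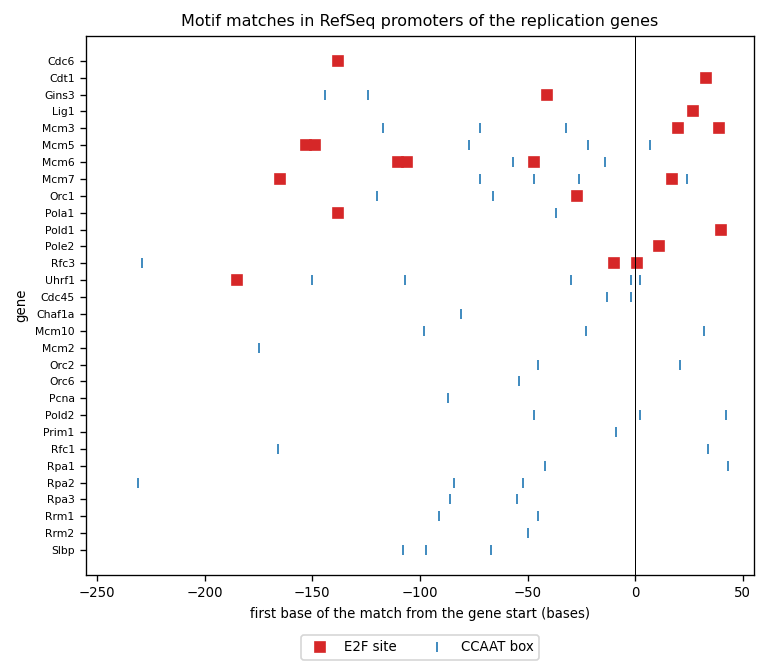
Position of E2F sites (red squares) and CCAAT boxes (blue bars) in the RefSeq promoters of the replication genes with at least 1 match; the x axis gives the first base of each match in bases from the gene start, and each line is a gene. The 14 genes with an E2F site are at the top, and their sites spread from -185 to 40.

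The promoter of Pola1, the gene with the highest fold change of the set, is shown whole up to its start, since its E2F site and its CCAAT box both lie in it. It covers chrX:93632156-93632405 on the minus strand of GRCm38.p6, has a GC content of 67.2%, and is written along the gene with both matches in capitals.
Pola1 promoter: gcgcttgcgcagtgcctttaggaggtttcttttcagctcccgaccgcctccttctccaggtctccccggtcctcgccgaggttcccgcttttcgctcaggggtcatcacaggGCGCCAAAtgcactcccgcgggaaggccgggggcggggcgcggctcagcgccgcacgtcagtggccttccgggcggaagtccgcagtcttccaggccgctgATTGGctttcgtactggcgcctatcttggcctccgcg

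Every replication gene was well measured. The sum of both libraries ran from 1317 counts (Gins1) to 30676 counts (Mcm5), and all 44 genes passed the minimum of 10 counts in 1 library or both. Levels of different genes were compared as CPM per kilobase of transcript. Pcna, the sliding clamp, stood highest at 198.5 CPM per kb in shCTR and 219 in shcircCsnk1g3, followed by Mcm6 (115 and 123) and Mcm5 (110 and 113). Orc1, the largest subunit of the origin recognition complex, stood lowest at 9.17 and 8.004 CPM per kb. The highest level was 21.6 times the lowest in shCTR and 27.4 times in shcircCsnk1g3. The median of the set was 34.4 CPM per kb in shCTR and 36.0 in shcircCsnk1g3, above the 17.4 that genes with at least 1000 summed counts had in both. In the order of levels, 14 of the 44 genes held the same place in both libraries and no gene moved by more than 6 places.

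**Figure D2:**
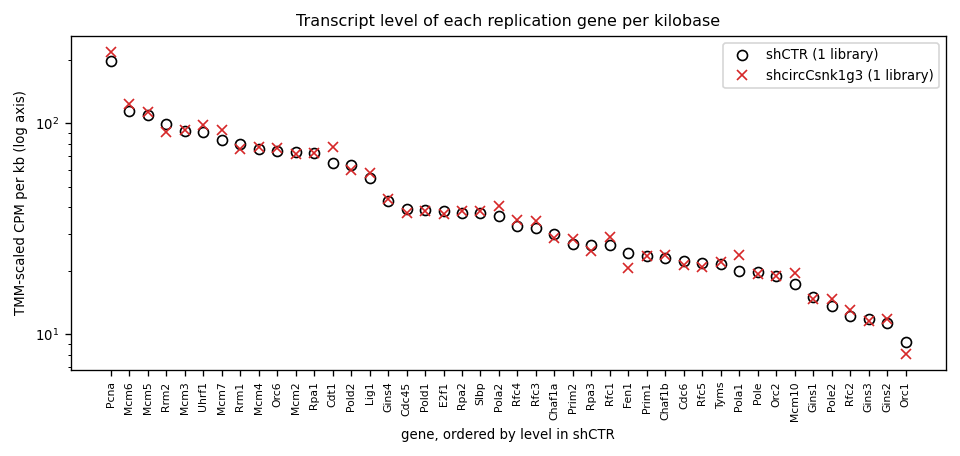
TMM-scaled CPM per kilobase of transcript (log axis) of the 44 replication genes, ordered by their level in shCTR; circles are the shCTR library and crosses the shcircCsnk1g3 library. Levels run from 9.17 (Orc1) to 198.5 (Pcna) in shCTR, and the symbols of a gene lie close together along the whole range.

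Transcript levels differed between the subunits of a complex, by small ratios in some complexes and larger ones in others. The 6 MCM subunits, which form a ring with 1 copy of each, lay between 73.4 (Mcm2) and 115 (Mcm6) CPM per kb in shCTR, a ratio of 1.56. Rrm1 and Rrm2, the large and small subunits of ribonucleotide reductase, differed by a ratio of 1.24, and the CAF-1 subunits Chaf1a and Chaf1b by 1.30. The polymerase alpha-primase subunits spanned 19.98 (Pola1) to 36.2 (Pola2). Wider ranges were seen for RFC, from 12.2 (Rfc2) to 32.5 (Rfc4), for RPA, from 26.4 (Rpa3) to 72.1 (Rpa1), and for GINS, from 11.3 (Gins2) to 43.1 (Gins4). The origin recognition complex was the widest of these, with a ratio of 8.10 between Orc6 and Orc1 in shCTR and 9.56 in shcircCsnk1g3. The exons of Orc6 overlap those of Vps35 on the opposite strand, with 10701 counts in shcircCsnk1g3 and 10582 in shCTR. The part of Vps35 in the level of Orc6 was not tested. A transcript length from the annotation enters each level per kb, so a gene read from a shorter transcript would shift in the order. Rfc2 and Gins2 stood lowest in their complexes with transcript lengths of 4995 and 3900 bases. Before division by length, Rfc2 had 60.9 CPM in shCTR and Rfc4 41.6. Gins2 had 44.2 CPM in shCTR, above Gins1 (16.4) and Gins3 (29.6). The ranges of RFC and GINS thus depend on the transcripts chosen.

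The replication genes stayed within a narrow range between the libraries. None of the 44 was at least 1.2-fold higher or lower in shcircCsnk1g3 than in shCTR. That difference was reached by 15.7% of the 12941 tested genes in the higher direction and by 16.4% in the lower, and among the 8719 with at least 1000 summed counts, which every replication gene had, the shares were 8.61% and 10.4%. The log2 fold change of TMM-scaled CPM (TMM is a scaling that sets the bulk of genes to equal levels) ran from -0.23 (Fen1) to 0.25 (Pola1 and Cdt1). Its median was 0.03 over the set, 0.00 over all genes tested and -0.00 over genes with at least 1000 summed counts. The distance between its quartiles was 0.14 for the set, against 0.32 and 0.25, and it was 0.12 for other replication proteins and 0.13 for G2 and mitosis genes, lists described further on. In 35 of the 44 genes the levels differed by less than 10%, and in 25 by less than 5%.

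Small differences were still resolved, because counts were high. The 95% interval of each ratio (Clopper-Pearson) holds the error of counting alone, so it compares the libraries and not the conditions. The interval lay above 0 for 14 replication genes, against 26.9% of genes tested and 30.8% of those with at least 1000 summed counts. It lay below 0 for 7, against 28.2% and 33.0%, and included 0 for the other 23. With total counts in place of TMM, 18 intervals lay above 0 and 3 below. Summed over the set, there were 226918 counts in shcircCsnk1g3 and 237552 in shCTR, or 0.585% and 0.556% of the libraries. The log2 ratio of these sums was 0.04 (0.03 to 0.05) after TMM scaling. In bulk RNA, a different share of cells in S phase and a different amount of RNA per such cell cannot be told apart.

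**Figure D3:**
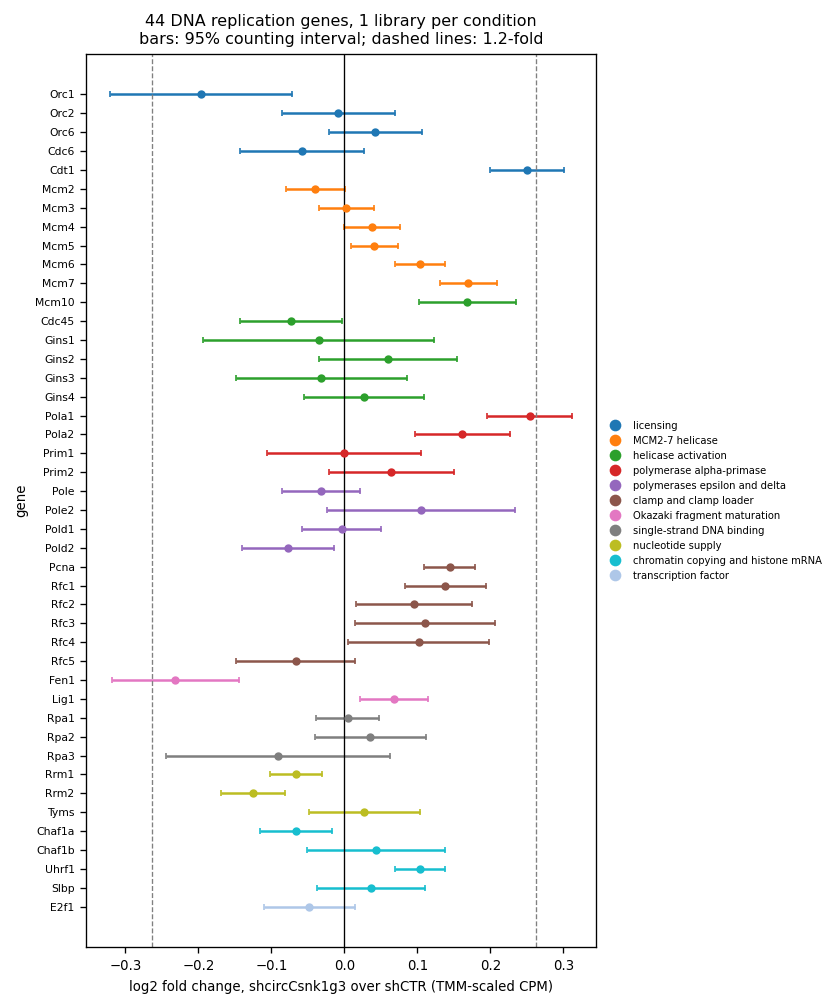
Log2 fold change (shcircCsnk1g3 over shCTR, TMM-scaled CPM) of each replication gene, with its 95% counting interval as a bar and its role as the color; dashed lines mark 1.2-fold. All 44 points lie between the dashed lines, from -0.23 (Fen1) to 0.25 (Pola1).

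The licensing genes included values in both directions. Cdt1, which brings the MCM ring to origins and is held in check by geminin, had 169 CPM in shcircCsnk1g3 and 142 in shCTR, a log2 fold change of 0.25 (0.20 to 0.30). Orc1 had 24.1 and 27.6 CPM, a log2 fold change of -0.20 (-0.32 to -0.07). These were the second highest and the second lowest values of the set, and both promoters held an E2F match. Cdc6, the partner of CDT1 in loading, had 54.6 and 56.9 CPM (-0.06, with an interval of -0.14 to 0.03). Orc2 (67.1 and 67.5 CPM) and Orc6 (98.5 and 95.6 CPM) had intervals that included 0 as well. The median of the 5 genes was -0.01 with TMM, 0.02 when only total counts were used and -0.06 with a correction for transcript length and GC content.

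The fold changes of the MCM2-7 helicase genes ran in the order of their names, from Mcm2 as the lowest to Mcm7 as the highest, an order that broke with the same correction, where Mcm3 (-0.06) lay below Mcm2 (-0.05). Mcm7 had 277 CPM in shcircCsnk1g3 and 246 in shCTR (log2 fold change 0.17, interval 0.13 to 0.21), Mcm6 had 359 and 334 (0.10, interval 0.07 to 0.14), and Mcm5 had 382 and 371 (0.04, interval 0.01 to 0.07). Mcm4 had 278 and 271 CPM, Mcm3 281 and 280, and Mcm2 241 and 248 (-0.04, interval -0.08 to 0.00). The intervals of Mcm7 and Mcm6 lay above that of Mcm2 without overlap, so subunits of a single ring differed in change by more than counting error. Summed, the 6 genes had a log2 ratio of 0.05 (0.04 to 0.07). The exons of Mcm7 overlap those of Cops6 and Ap4m1 on the opposite strand, which had log2 fold changes of -0.07 and 0.38. The kit kept strand, but whether the counting used it was not stated in the sources used here.

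Among the genes that activate the helicase, the changes pointed both ways. Mcm10, which acts when the loaded helicase is switched on, had 94.9 CPM in shcircCsnk1g3 and 84.5 in shCTR (log2 fold change 0.17, interval 0.10 to 0.24). Cdc45, a subunit of the active helicase, had 80.2 and 84.4 CPM (-0.07, interval -0.14 to -0.00). The intervals of these genes did not overlap. The GINS genes lay between -0.03 (Gins1) and 0.06 (Gins2), and all 4 intervals included 0. Gins1 was the member with the fewest counts, 626 and 691, and its interval of -0.19 to 0.12 was among the widest of the set.

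Both polymerase subunits of polymerase alpha-primase were higher in the shcircCsnk1g3 library, and the primase subunits had intervals that included 0. Pola1, the catalytic subunit, had 127 CPM in shcircCsnk1g3 and 107 in shCTR, a log2 fold change of 0.25 (0.20 to 0.31). Pola2, its accessory subunit, had 98.1 and 87.7 CPM (0.16, interval 0.10 to 0.23). Prim1, the catalytic primase subunit, had 36.1 CPM in both libraries (-0.00, interval -0.11 to 0.10), and Prim2 had 55.6 and 53.2 (0.06, interval -0.02 to 0.15). The interval of Pola1 lay above those of both primase genes. Summed, the 4 genes had 12436 and 11988 counts, and the log2 ratio of 0.16 (0.12 to 0.20) was the highest of the role groups.

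The polymerases that extend the primers gave smaller values. Pole, the leading-strand polymerase, had 139 CPM in shcircCsnk1g3 and 142 in shCTR (log2 fold change -0.03), and Pold1, the catalytic subunit of polymerase delta, had 133 in both (-0.00). Both intervals included 0. Pold2, the second subunit of polymerase delta, had 99.5 and 105 CPM (-0.08, interval -0.14 to -0.01, and -0.00 with the length and GC correction), and Pole2 had 25.02 and 23.3 (0.10, interval -0.02 to 0.23). The median of the 4 was -0.02 with TMM and 0.01 with total counts.

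The sliding clamp and the complex that loads it were higher in 5 of 6 genes, all 5 with an interval above 0, beside 26.9% of genes tested and 30.8% of those with at least 1000 summed counts. Pcna had 333 CPM in shcircCsnk1g3 and 301 in shCTR, a log2 fold change of 0.14 (0.11 to 0.18). The pseudogene Pcna-ps2 had 33 and 38 counts, few beside the 13057 and 12731 of Pcna. Among the loader genes, Rfc1, the large subunit, had 136 and 124 CPM (0.14, interval 0.08 to 0.19), and Rfc2, Rfc3 and Rfc4 lay at 0.10 to 0.11 with intervals above 0. Rfc5 was the exception, with 58.1 and 60.9 CPM (-0.07, interval -0.15 to 0.01). The exons of Rfc5 overlap those of Wsb2 on the opposite strand, and Wsb2 had 3211 and 4237 counts, a log2 fold change of -0.29. Those of Rfc4 overlap Eif4a2, with 9297 and 9021 counts and a log2 fold change of 0.15, and those of Rfc2 overlap Lat2, with 29 and 21 counts. The part of these neighbours in the values of the loader genes was not tested.

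Genes that finish the lagging strand gave a lower and a higher value. Fen1, the nuclease that trims Okazaki fragments, had 48.9 CPM in shcircCsnk1g3 and 57.5 in shCTR, a log2 fold change of -0.23 (-0.32 to -0.14), the lowest of the set. Lig1, the ligase that seals the nick, had 184 and 176 CPM (0.07, interval 0.02 to 0.11), and its log2 fold change was 0.01 with the length and GC correction. The exons of Fen1 overlap those of Tmem258 on the opposite strand, which had 1486 and 1962 counts and a log2 fold change of -0.29 (-0.39 to -0.20). Its part in the value of Fen1 was not tested. In all, 11 of the 44 genes shared exon sequence with a counted gene on the other strand.

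For RPA, which coats single-stranded DNA, all 3 intervals included 0. Rpa1 had 213 and 212 CPM, Rpa2 69.9 and 68.2, and Rpa3 16.6 and 17.7 in shcircCsnk1g3 and shCTR. The log2 fold changes lay between -0.09 (Rpa3) and 0.04 (Rpa2). The log2 ratio of the summed counts was 0.01 (-0.03 to 0.04).

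The genes of nucleotide supply were lower for ribonucleotide reductase, the enzyme that makes deoxynucleotides. Rrm2, its S-phase subunit, had 199 CPM in shcircCsnk1g3 and 217 in shCTR (log2 fold change -0.13, interval -0.17 to -0.08). Rrm1 had 303 and 318 CPM (-0.07, interval -0.10 to -0.03). Tyms, the thymidylate synthase, had 69.7 and 68.4 CPM (0.03, interval -0.05 to 0.10). The reductase genes were among the 7 with an interval below 0, together with Fen1, Orc1, Pold2, Cdc45 and Chaf1a.

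The genes that carry chromatin through replication showed no common direction. Uhrf1, which brings the maintenance methyltransferase to new DNA, had 352 CPM in shcircCsnk1g3 and 328 in shCTR (log2 fold change 0.10, interval 0.07 to 0.14). Chaf1a, the large subunit of the histone chaperone CAF-1, had 158 and 166 CPM (-0.07, interval -0.12 to -0.02), while its partner Chaf1b had 45.6 and 44.3 (0.04, interval -0.05 to 0.14). Slbp, which binds the stem-loop of replication-dependent histone mRNAs, had 73.5 and 71.6 CPM (0.04, interval -0.04 to 0.11). E2f1 had 101 and 105 CPM, a log2 fold change of -0.05 (-0.11 to 0.01).

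Genes near the replication set were described from lists with no member in common with it. Of 38 other replication proteins, 3 were at least 1.2-fold higher and 2 at least 1.2-fold lower, with a median log2 fold change of 0.03. The shares over all genes tested were 15.7% and 16.4%, and 8.61% and 10.4% among those with at least 1000 summed counts. The higher ones were Orc5, a subunit of the origin recognition complex (31.8 CPM in shcircCsnk1g3 and 24.6 in shCTR, 0.37), Mtbp (101 and 78.6, 0.37) and Recql4 (63.0 and 48.9, 0.36), both linked to origin firing. The lower ones were Rnaseh2c, a subunit of ribonuclease H2 (20.4 and 25.3, -0.31), and Pold4, the smallest subunit of polymerase delta (17.5 and 21.3, -0.29). With Orc3, Orc4 and Orc5 added, the 6 Orc genes ran from -0.20 (Orc1) to 0.37 (Orc5), the widest spread of change within a complex examined here.

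Other nucleotide synthesis genes were mostly lower. Of 18 genes, 13 were lower, 10 had an interval below 0 (28.2% of all genes tested, 33.0% with at least 1000 summed counts) and 1 had an interval above 0 (26.9% and 30.8%), and the median log2 fold change was -0.11. Nme1, a nucleoside diphosphate kinase, had 130 CPM in shcircCsnk1g3 and 163 in shCTR (-0.32) and was the 1 gene past 1.2-fold, a difference that 16.4% of all genes tested and 10.4% of those with at least 1000 summed counts reached in that direction. G2 and mitosis genes were lower in 25 of 26, with 22 intervals below 0, a median of -0.14 and summed counts of 199740 against 238222. Cenpa, the centromeric histone (98.6 and 129 CPM, -0.39), Ube2c (141 and 183, -0.37) and Aurkb (88.7 and 111, -0.32) were the lowest, and 5 of the 26 were at least 1.2-fold lower and 0 at least 1.2-fold higher. Over all genes tested 16.4% were at least 1.2-fold lower and 28.2% had an interval below 0, and among those with at least 1000 summed counts the shares were 10.4% and 33.0%. The summed log2 ratio was 0.04 for replication genes and -0.15 for G2 and mitosis genes, with intervals of 0.03 to 0.05 and -0.16 to -0.14. Clustered histone genes, of which poly(A) libraries catch a small part, were at least 1.2-fold higher in 35 and lower in 8 of 53 tested, beside 15.7% and 16.4% of all genes tested. Many of them had few counts, and the interval lay above 0 for 24 and below 0 for 4. Among those with at least 200 summed counts, Hist2h2be (0.67), Hist1h4i (0.61) and Hist2h2aa2 (0.45) had the highest log2 fold changes. The median was 0.49 over the 53 genes, 0.30 over those with at least 200 summed counts and 0.62 with no count filter. Values are uncertain where copies are nearly identical.

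**Figure D4:**
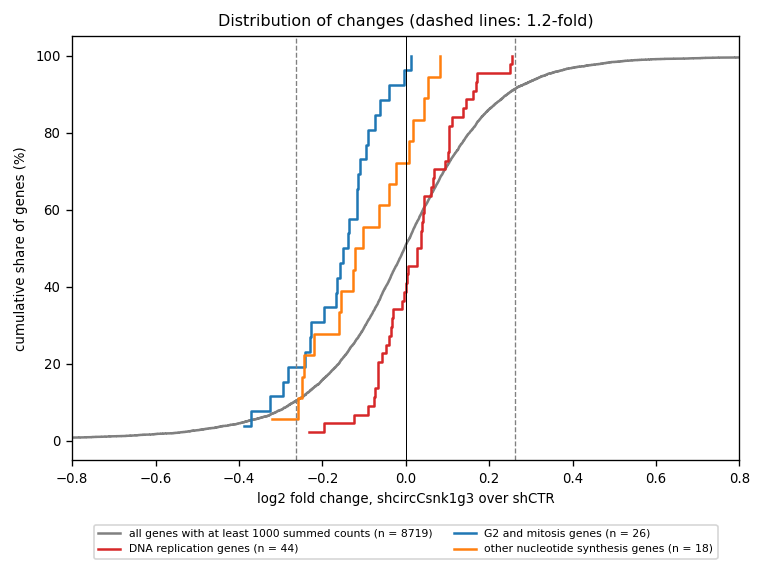
Cumulative share of genes (%) against log2 fold change (shcircCsnk1g3 over shCTR) for the 44 replication genes, 18 other nucleotide synthesis genes, 26 G2 and mitosis genes and the 8719 genes with at least 1000 summed counts; dashed lines mark 1.2-fold and values beyond 0.8 in either direction are not drawn. The curve of the replication genes is steep around 0.03, while the curves of mitosis and nucleotide genes are shifted to -0.14 and -0.11.

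The regulators of S-phase entry held changes larger than any within the replication set. Of 28 E2F, RB and cyclin genes tested, 3 were at least 1.2-fold higher and 5 at least 1.2-fold lower, beside 15.7% and 16.4% of all genes tested and 8.61% and 10.4% of those with at least 1000 summed counts. Their median log2 fold change was 0.01, and the distance between quartiles was 0.29, between the 0.32 of all genes tested and the 0.25 of those with at least 1000 summed counts. Cdkn1a, the CDK inhibitor p21 (52.8 CPM in shcircCsnk1g3 and 35.9 in shCTR, 0.56), Rb1 (43.8 and 32.2, 0.44) and Ccnd1, cyclin D1 (1313 and 1069, 0.30), were higher. Ccne2, cyclin E2 (20.7 and 32.8, -0.66), Ccnd2, cyclin D2 (87.4 and 137, -0.65), and the repressor E2f8 (75.9 and 95.3, -0.33) had the lowest values. Ccne1 itself had 22.8 CPM in both libraries. Of 19 replication stress response genes, 1 was at least 1.2-fold higher and 1 lower, namely Brca2 (65.3 and 47.5 CPM, 0.46) and Hus1 (37.3 and 47.7, -0.35), around a median of 0.06.

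E2F matches were also counted in the promoters of the other lists. They were found for 8 of 20 E2F, RB and cyclin genes with a promoter in the table (40%), 11 of 32 other replication proteins (34.4%), 1 of 16 other nucleotide synthesis genes (6.25%), 1 of 14 replication stress response genes (7.14%) and 1 of 22 G2 and mitosis genes (4.55%). Of those 22 mitotic genes, 20 had a CCAAT box (90.9%), against 41.1% of all genes of the promoter table. Among genes with at least 1000 summed counts the share was 43.2%. It was 40.6% for other replication proteins, below the 67.6% of the replication set, and 31.2% for other nucleotide synthesis genes. E2F, RB and cyclin genes and replication stress response genes each had 50%. Replication genes with an E2F match had a median log2 fold change of 0.09 (14 genes), and those without had -0.00 (23 genes). Over all genes of the promoter table these medians were 0.04 and -0.00, and over genes with at least 1000 summed counts 0.03 and -0.00, a difference in the same direction. The other lists did not all share it. E2F, RB and cyclin genes did, with medians of 0.07 with a match (8 genes) and 0.01 without (12 genes). The only replication stress response gene with a match lay at 0.46, above the median of 0.07 without. Other replication proteins had medians of 0.01 with a match (11 genes) and 0.02 without (21 genes). The only nucleotide synthesis gene with a match lay at -0.24, below the median of -0.10 without. For G2 and mitosis genes these values were -0.20 and -0.12. The highest values, Pola1 and Cdt1, had a match, as had Mcm7 (0.17) and Orc1 (-0.20), and the genes without a match ran from -0.23 (Fen1) to 0.17 (Mcm10).

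Transcript length and base composition moved slightly with the fold change across all genes. Over genes with at least 1000 summed counts and known length, the median log2 fold change went from -0.06 in the shortest length decile to 0.02 in the longest, and from 0.04 in the decile with the least GC to -0.03 in that with the most. Over the replication genes, Spearman's rho between log2 fold change and transcript length was 0.08 (44 genes), against 0.10 over 8712 genes. These genes share both libraries and are not independent replicates. When the median of each gene's length and GC deciles was subtracted, the median of the set was 0.02.

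**Figure D5:**
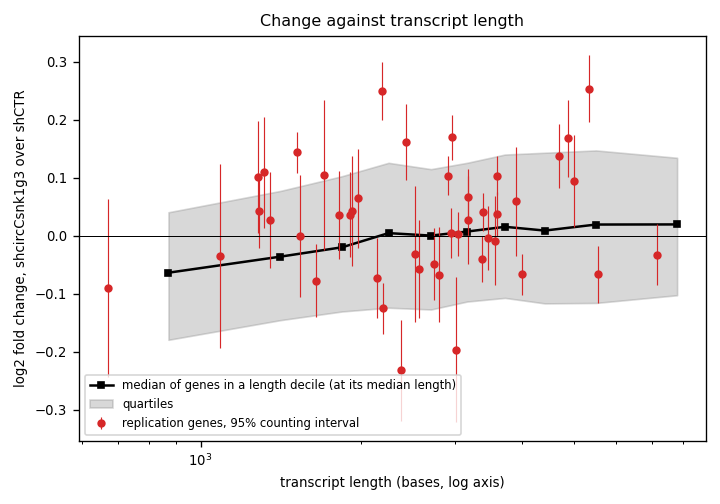
Log2 fold change (shcircCsnk1g3 over shCTR) against transcript length in bases (log axis); red points are the 44 replication genes with 95% counting intervals, black squares the median of genes with at least 1000 summed counts in each length decile, and grey their quartiles. The medians run from -0.06 to 0.02, and replication genes of similar length lie on both sides of them.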

How the data were processed

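Poly(A) RNA of 2 libraries, 1 of shcircCsnk1g3 and 1 of shCTR, was sequenced with a stranded kit. The authors aligned reads to GRCm38 with STAR and used RSEM for counting. The deposited table holds whole numbers under RSEM column names, taken here as estimated counts without normalization, rounded. RSEM divides reads that match several genes. The authors also deposited TMM-scaled CPM for 11624 genes, including all 44 replication genes, used here as an alternative. Spike-in rows (92, all 0) were left out.

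A gene was tested if either library, or both, had at least 10 counts for it. CPM and log2 fold changes came from edgeR 4.0.16 (R 4.3.3) with TMM and a prior count of 2. Counting intervals (95%, Clopper-Pearson) came from scipy 1.17.1. With 1 library per condition no p-value was computed, and a 1.2-fold difference was the call rule. Depth gave intervals with half-widths of 0.03 to 0.16 on the log2 scale. Positions and lengths are from GENCODE M21 (25251 of 25509 identifiers matched), whereas the authors' release was not given in the sources used here. Each gene is represented by its transcript with the longest coding sequence, and by the longest transcript where several tied. Promoters are from RefSeq. Protein sequences were not analysed here. Steps were tested on simulated counts.

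The 44 genes, the other lists and the tests were chosen with earlier results of these data known. All 44 were named, and from each other list up to 3 genes per direction with the largest change past 1.2-fold and at least 200 summed counts. Alternatives were DESeq2 1.42.0 size factors, total counts, prior counts of 0.5 and 10, omitting the count filter, a sum of at least 200 or 1000 counts, folds of 1.5 and 2, the deposited table, and a correction for length and GC. The sum of 1000 and the correction were added after seeing the data.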

Additional observations from a re-analysis of the deposited data

How the results depend on the processing

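The median log2 fold change of the replication genes stayed above 0, between 0.02 and 0.06, under all alternatives run. No replication gene was at least 1.2-fold lower under any of them. Several alternatives could not show otherwise. Every replication gene had at least 1317 summed counts, so each choice of count filter kept the same 44 genes. The larger fold thresholds are stricter than 1.2-fold and could add no gene. The other prior counts are small beside such sums and could hardly move a value. Only the other scalings, the deposited table and the length and GC correction could test these results. With total counts in place of TMM, which moved the median of all genes to 0.03, 2 replication genes were at least 1.2-fold higher (Pola1 and Cdt1), 3 had an interval below 0 in place of 7, and the summed log2 ratio was 0.0727. Of 264 values of single replication genes under alternatives, 257 moved by less than their counting interval. The other 7 moved with the length and GC correction, and were those of Mcm3 (-0.06), Mcm7 (0.11), Pold2 (-0.00), Lig1 (0.01), Rrm1 (-0.12), Rrm2 (-0.17) and Uhrf1 (0.07). The sign changed for Orc2, Prim1 and Pold1 with total counts, for Mcm3, Prim1 and Tyms with the correction, and for Prim1 in the deposited table, and the medians of licensing, helicase activation and polymerases epsilon and delta turned positive with total counts. The median of helicase activation was also positive with the correction. What caused these shifts was not tested, apart from what each alternative changes. No paired analysis was possible because each condition was 1 library and no test was made, and for the same reason no replicate could be left out. Depth limits single genes to differences beyond their counting interval, and culture-to-culture variation could not be measured.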
